A study of Homo sapiens with 6 samples.

Results

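The 9 genes described here encode enzymes that make serine, convert it to glycine and carry its carbon through the folate cycle. They are PHGDH, PSAT1, PSPH, SHMT1, SHMT2, MTHFD1, MTHFD2, MTHFD1L and ALDH1L2, taken by gene symbol from a table of 58735 genes, and each symbol matched 1 row. Their RNA was counted in VCaP, an established prostate cancer line of human origin with a fusion of TMPRSS2 and ERG. One group (shNEDD9, n = 3 libraries) stably carried a short hairpin RNA against NEDD9, a scaffold protein of focal adhesions, and the other (shNTC, n = 3) a non-targeting hairpin. Both were infected and grown in DMEM with 10% FBS. How many hairpins were used, and whether the cells were cloned, was not given in the sources used here, and the model is a single line. The question was which genes change when NEDD9 is silenced. The libraries were called biological triplicates, but nothing says that they came from separate infections, so every p-value reflects the spread among libraries alone, and that spread may be technical.

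PHGDH, PSAT1 and PSPH act in sequence to turn a glycolytic intermediate into serine. SHMT1 in the cytosol and SHMT2 in mitochondria split serine into glycine and a carbon unit bound to tetrahydrofolate. In mitochondria MTHFD2 oxidises that unit and MTHFD1L releases it as formate, while ALDH1L2 releases it as carbon dioxide. MTHFD1 takes the formate up again in the cytosol for purine and thymidylate synthesis. Several of these genes are known targets of ATF4, a transcription factor of the amino acid response, and fast-growing cells generally use the pathway heavily.

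NEDD9 itself stood at 361.1, 338.3 and 364.3 CPM (counts scaled to the library total, with TMM factors) in the shNTC libraries and at 136.7, 137.5 and 135.5 CPM in the shNEDD9 libraries. All 10 markers fixed for VCaP cells were detected. Of the 14 markers of fibroblasts, leukocytes and endothelium, CD3E, CD68 and CDH5 had no count in any library. The 6 fibroblast markers summed to 26.3 to 33.5 CPM in shNTC and 47.3 to 54.4 CPM in shNEDD9, the 4 leukocyte markers to 3.08 to 5.01 and 4.35 to 5.13 CPM, and the 4 endothelial markers to 1.34 to 2.82 and 1.61 to 2.34 CPM. Most of the fibroblast sum was LUM, at 19.1 ± 0.57 against 45.1 ± 3.17 CPM (SD, n = 3 each), while COL1A1 was lower, at 7.21 ± 2.25 against 4.62 ± 0.64 CPM (n = 3 each). The others were too rare to test: means went from 2.08 to 0.35 CPM for COL1A2, 0.92 to 0.19 for COL3A1, 0.24 to 0.16 for DCN and 0.34 to 0.75 for PDGFRB. Library totals ran from 3217276 to 9902002 counts. Because these are bulk libraries, a change in RNA per cell and a change in the kinds of cells present cannot be told apart.

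Promoter sequences were compared upstream of the start for those members that had one on record. RefSeq's promoter table (GRCh38.p14) matched 6 of the 9 genes: PHGDH, PSAT1, SHMT1, MTHFD1, MTHFD2 and MTHFD1L. PSPH, SHMT2 and ALDH1L2, each at least 4-fold higher in shNEDD9, had no entry. What the most changed genes share can therefore not be read from these sequences. The 250 bases before the start are printed for PSAT1, MTHFD2 and PHGDH, which were among the genes with large differences, and for SHMT1, which had the smallest. Capitals mark CCAAT on either strand, the box that NF-Y binds. They lie on the plus strand at chr9:78296875-78297124, chr2:74198365-74198614 and chr1:119711684-119711933, and for SHMT1 on the minus strand at chr17:18363551-18363800. The RefSeq start of PHGDH lies inside the longer span that GENCODE gives the gene.
PSAT1: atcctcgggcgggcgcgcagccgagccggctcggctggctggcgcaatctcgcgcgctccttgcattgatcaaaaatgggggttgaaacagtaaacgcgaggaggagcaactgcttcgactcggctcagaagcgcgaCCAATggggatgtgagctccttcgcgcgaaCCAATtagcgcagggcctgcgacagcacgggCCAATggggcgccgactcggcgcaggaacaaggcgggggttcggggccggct
MTHFD2: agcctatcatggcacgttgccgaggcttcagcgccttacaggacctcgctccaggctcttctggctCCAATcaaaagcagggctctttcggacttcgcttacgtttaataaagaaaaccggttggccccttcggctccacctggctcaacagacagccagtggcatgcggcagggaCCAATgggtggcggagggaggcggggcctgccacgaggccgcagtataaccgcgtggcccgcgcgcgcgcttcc
PHGDH: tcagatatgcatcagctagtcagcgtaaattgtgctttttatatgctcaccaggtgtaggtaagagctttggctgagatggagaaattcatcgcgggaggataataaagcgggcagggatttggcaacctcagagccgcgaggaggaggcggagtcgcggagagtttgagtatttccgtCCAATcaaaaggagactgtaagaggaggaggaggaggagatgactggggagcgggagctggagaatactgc
SHMT1: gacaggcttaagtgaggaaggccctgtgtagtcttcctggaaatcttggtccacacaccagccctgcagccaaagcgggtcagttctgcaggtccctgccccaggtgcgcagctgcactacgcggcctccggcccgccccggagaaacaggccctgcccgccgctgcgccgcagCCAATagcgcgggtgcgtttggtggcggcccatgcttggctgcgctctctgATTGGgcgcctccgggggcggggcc
PSAT1 held CCAAT 3 times, 113, 83 and 52 bases before its start, MTHFD2 and SHMT1 each 2 times, and PHGDH 1 time. In the full window of 250 bases before and 50 after the start, searched on both strands, 6 of 6 members held CCAAT in at least 1 window. The 6 genes have 9 windows, 4 of them of MTHFD1L, and CCAAT was in 8 of the 9, where 34.6% of all 35116 promoter windows held it. The MTHFD1L windows that held it overlap and show the same box, so the windows are not separate finds. SHMT1, with the smallest difference in expression, held as many copies as MTHFD2.

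The core of the C/EBP-ATF element, which ATF4 binds with a partner, was searched as TGATGNAA on both strands. It was found in 1 of the 6 genes, MTHFD1L (3 of 9 windows, which overlap and hold the same site), and in 3.62% of all windows. MTHFD1L has several annotated starts, and the match (capitals in the 30 bases below, chr6:150866346-150866375, plus strand) lies 24 bases after the first of them and 90 and 129 bases before the next ones.
MTHFD1L: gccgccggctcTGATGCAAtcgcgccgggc
CACGTG, the E-box that MYC binds, was present in MTHFD1 and MTHFD1L (2 of 6 genes and 4 of 9 windows, against 7.26% of all windows). The MTHFD1L windows that held it overlap and show the same site, so the windows are not separate finds. TGACGT, from the cAMP response element, was found in none of the 6 (7.98% of all windows), and TGACNNNGC, the antioxidant response core, in MTHFD2 alone (1 of 9 windows, against 13.3% of all). TGACGT and TGACNNNGC both begin with TGAC and can overlap. A match here is a description of letters in a short window. Elements farther away or inside the gene were not searched, and neither were PSPH, SHMT2 and ALDH1L2, which had no entry.

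All 3 genes of serine synthesis were higher in every shNEDD9 library. PHGDH (ENSG00000092621, GRCh38 chromosome 1, 119648411 to 119744226, plus strand), the enzyme of the first step, stood at 132.4, 134.4 and 144.6 CPM in shNTC and at 477.6, 479.4 and 465.9 CPM in shNEDD9. The groups were far apart, and the fold was 3.45 (log2 fold change 1.79, SE 0.03). PSAT1 (ENSG00000135069, chromosome 9, 78297143 to 78330093, plus strand), the transaminase of the middle step, had 103.5, 104.0 and 98.6 CPM in shNTC and 610.0, 609.4 and 616.8 CPM in shNEDD9. Its fold was 6.02 (log2 fold change 2.59, SE 0.04), and within shNEDD9 it varied by 0.68% (coefficient of variation), less than any other member. PSPH (ENSG00000146733, chromosome 7, 56011051 to 56051604, minus strand), the phosphatase of the last step, went from 40.9, 36.3 and 36.3 CPM to 170.6, 179.6 and 182.7 CPM. This is 4.66-fold (log2 fold change 2.22, SE 0.06), so the first enzyme of the route had the smallest fold of the 3.

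**Figure D1:**
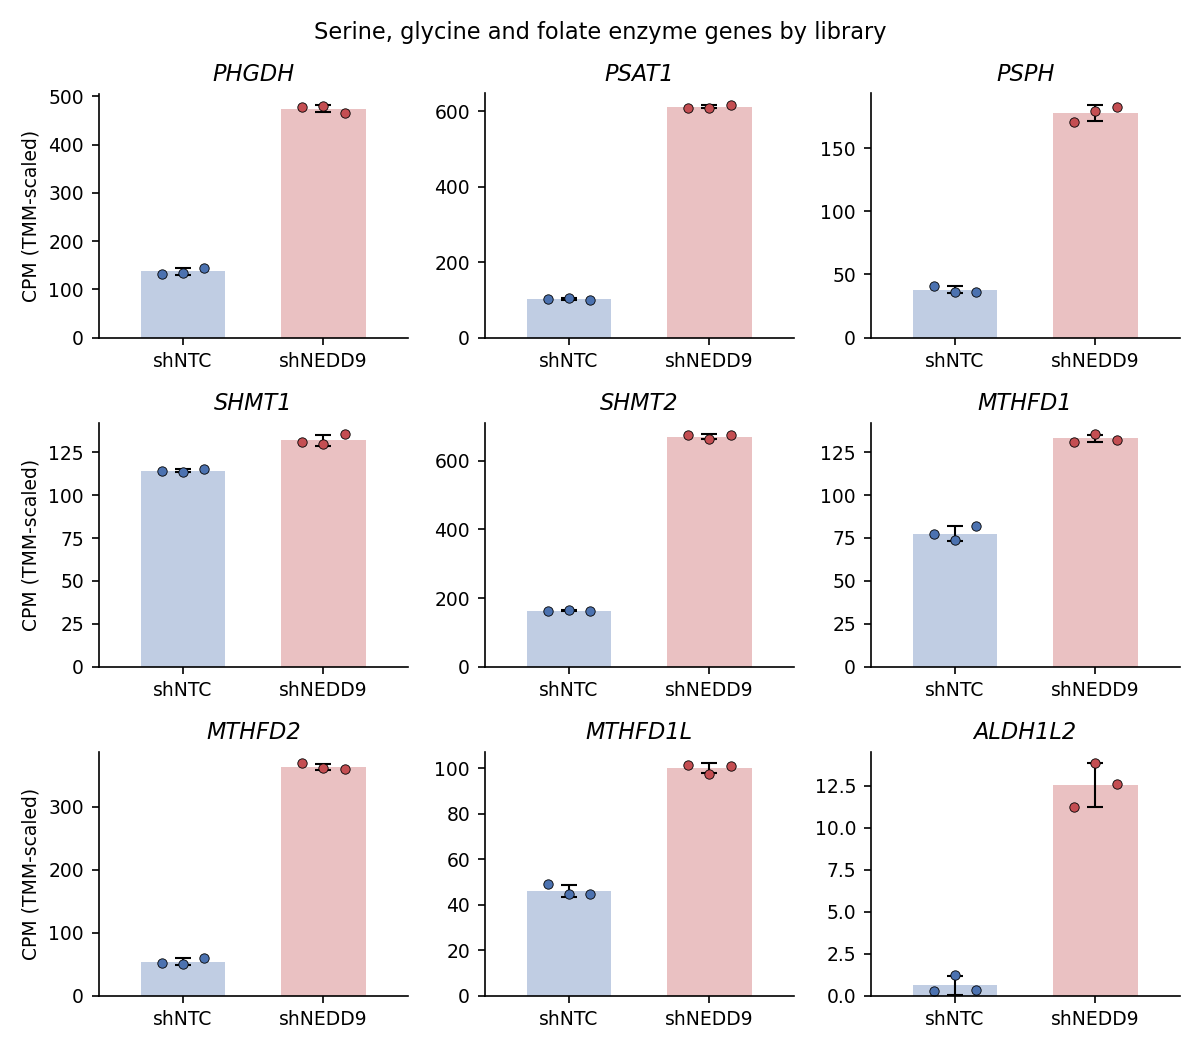
Expression of the 9 genes in each library. The y axis of each panel is CPM with TMM scaling and starts at 0; points are libraries, bars group means and error bars SD (n = 3 per group). In every panel the 3 shNEDD9 libraries lie above the 3 shNTC libraries, with the smallest gap for SHMT1.

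The mitochondrial and the cytosolic serine hydroxymethyltransferase differed in response. SHMT2 (ENSG00000182199, chromosome 12, 57229327 to 57234935, plus strand), the mitochondrial enzyme, had 161.1, 165.4 and 163.3 CPM in shNTC and 674.7, 661.7 and 673.7 CPM in shNEDD9. It was 4.11-fold higher (log2 fold change 2.04, SE 0.03), and the groups were far apart. SHMT1 (ENSG00000176974, chromosome 17, 18327860 to 18363563, minus strand), its cytosolic counterpart, went from 114.3, 113.7 and 115.3 CPM to 130.8, 129.7 and 135.7 CPM. Its libraries did not overlap either, but the fold was 1.16 (log2 fold change 0.21, SE 0.05). Ranked by log2 fold change among the 13958 genes tested, SHMT1 was number 5141 from the top and SHMT2 number 138.

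The folate enzymes that follow showed a wide range of folds. MTHFD2 (ENSG00000065911, chromosome 2, 74198562 to 74217565, plus strand), the mitochondrial dehydrogenase and cyclohydrolase, had 52.0, 50.1 and 59.9 CPM in shNTC and 369.1, 361.6 and 359.9 CPM in shNEDD9, or 6.65-fold more (log2 fold change 2.73, SE 0.04). MTHFD1L (ENSG00000120254, chromosome 6, 150865549 to 151101887, plus strand), which releases formate from mitochondrial folate, stood at 49.1, 44.8 and 44.5 CPM and then at 101.4, 97.5 and 101.1 CPM, a 2.15-fold difference (log2 fold change 1.10, SE 0.06). Its increase was thus smaller than that of MTHFD2, which acts just before it. MTHFD1 (ENSG00000100714, chromosome 14, 64388031 to 64463457, plus strand), the cytosolic enzyme with 3 activities, went from 77.2, 73.6 and 81.9 CPM to 131.2, 135.5 and 132.3 CPM (1.70-fold, log2 fold change 0.77, SE 0.05).

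ALDH1L2 (ENSG00000136010, chromosome 12, 105019784 to 105084577, minus strand) was the least expressed member. It had 2, 4 and 2 counts in the shNTC libraries and 67, 109 and 125 counts in the shNEDD9 libraries, or 0.27, 1.25 and 0.31 against 11.2, 13.8 and 12.6 CPM. The ratio of summed counts over library totals was 27.3, with an exact 95% interval of 13.7 to 63.8 that covers counting error only. The fitted fold was 25.9 and became 41.4 without shNTC replicate 2. ALDH1L2 passed the filter on low counts only through the shNEDD9 libraries, so that it had to differ.

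In the fit over all 13958 genes tested, 9 of 9 members were called higher in shNEDD9 (edgeR adjusted p under 0.05), where 35.5% of all tested genes were (71.4% were called in either direction). Without ALDH1L2 it was 8 of 8. At least 2-fold higher were 7 of the 9 (7.67% of all tested genes), and at least 4-fold higher 5 of the 9 (1.08% of all). The groups did not overlap in 9 of 9, against 35.7% of all tested genes that were separated in that direction and 36.1% in the other. The counts by fold and by overlap include ALDH1L2, which had to differ. The median log2 fold change was 2.04 over the members, or 1.91 without ALDH1L2, and 0.00 over all genes tested. These members were chosen with this contrast known, so the counts describe them and are not evidence about the pathway.

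Summed over the 9 genes, the libraries held 730.8, 723.6 and 744.7 CPM in shNTC and 2677, 2668 and 2681 CPM in shNEDD9. The sum was thus 3.65 times higher, with a spread within groups of 10.8 and 6.38 CPM (SD, n = 3 each). Serine synthesis (PHGDH, PSAT1 and PSPH) was 4.56 times higher in sum, the 4 mitochondrial genes 4.34 times and the cytosolic pair SHMT1 and MTHFD1 1.38 times. The make-up of the sum moved with this. PSAT1 took 13.9% of it in shNTC and 22.9% in shNEDD9 and MTHFD2 7.36% and 13.6%, while SHMT1 went from 15.6% to 4.94% and MTHFD1 from 10.6% to 4.97%. PHGDH kept nearly the same share, 18.7% and 17.7%.

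**Figure D2:**
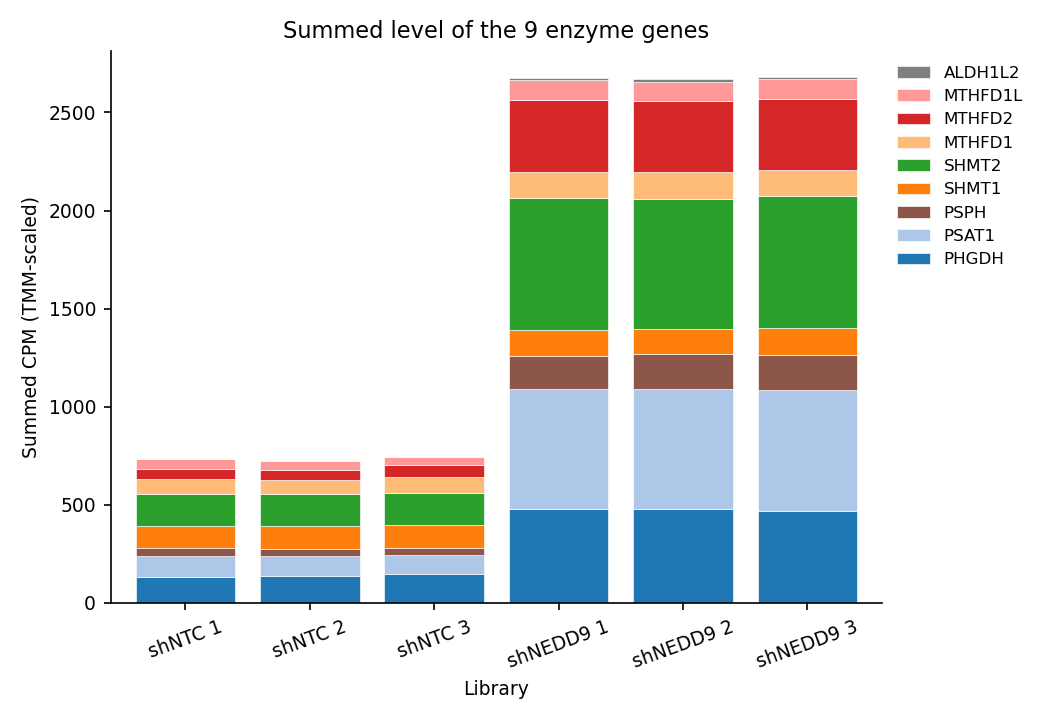
Summed CPM of the 9 genes in each of the 6 libraries, with TMM scaling, stacked by gene. The shNTC bars end at 723.6 to 744.7 CPM and the shNEDD9 bars at 2668 to 2681 CPM; the segments of PSAT1 and SHMT2 grow most in CPM.

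Levels can be compared between genes only per length, here as CPM per kilobase of annotated exon. On this scale PSAT1 was the highest member in both groups, at 46.6 ± 1.36 in shNTC and 279.7 ± 1.89 in shNEDD9 (SD, n = 3 each), followed by SHMT2 at 33.7 ± 0.44 and 138.5 ± 1.49. In shNTC the levels of SHMT1 (15.7), PHGDH (14.9) and PSPH (13.7) were next, and the libraries of SHMT1 and PHGDH, and of PHGDH and PSPH, overlapped. They were followed by MTHFD2 (11.1), MTHFD1L (9.18), MTHFD1 (8.27) and ALDH1L2 (0.072), with no overlap between neighbours from PSPH downwards. In shNEDD9 the order after SHMT2 was MTHFD2 (74.6), PSPH (64.3), PHGDH (51.5), MTHFD1L (19.9), SHMT1 (18.1), MTHFD1 (14.2) and ALDH1L2 (1.47), and no neighbours overlapped. On this scale SHMT1 stood before PHGDH, PSPH and MTHFD2 in shNTC and after all of them in shNEDD9. The order depends on the length used. By the longest transcript PHGDH stood before SHMT1 in both groups. On that length MTHFD2 lay close to MTHFD1L in shNTC (12.1 and 12.8) and level with PSPH in shNEDD9 (81.6 for both). Per kilobase of that transcript, PHGDH stood at 43.1 and SHMT1 at 41.5 in shNTC, and SHMT2 (47.8) came before PSAT1 (46.6).

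Ratios within a library do not depend on depth, and their change between groups does not depend on gene length. Per kilobase of exon, SHMT2 was at 2.12, 2.19 and 2.13 times the level of SHMT1 in shNTC and at 7.76, 7.68 and 7.47 times in shNEDD9. The mitochondrial over the cytosolic enzyme was therefore 3.56 times higher in shNEDD9, with no overlap. By the longest transcript the 2 ratios were 1.15 and 4.09. MTHFD2 over MTHFD1 went from 1.30, 1.31 and 1.41 to 5.42, 5.14 and 5.24. MTHFD1L over MTHFD1 moved less, from 1.19, 1.14 and 1.01 to 1.44, 1.34 and 1.43. Within serine synthesis, PSAT1 over PHGDH went from 3.29, 3.26 and 2.87 to 5.38, 5.35 and 5.58 and PSPH over PHGDH from 1.03, 0.90 and 0.84 to 1.19, 1.25 and 1.31. These ratios use the contrast that chose the members and are given without a test.

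**Figure D3:**
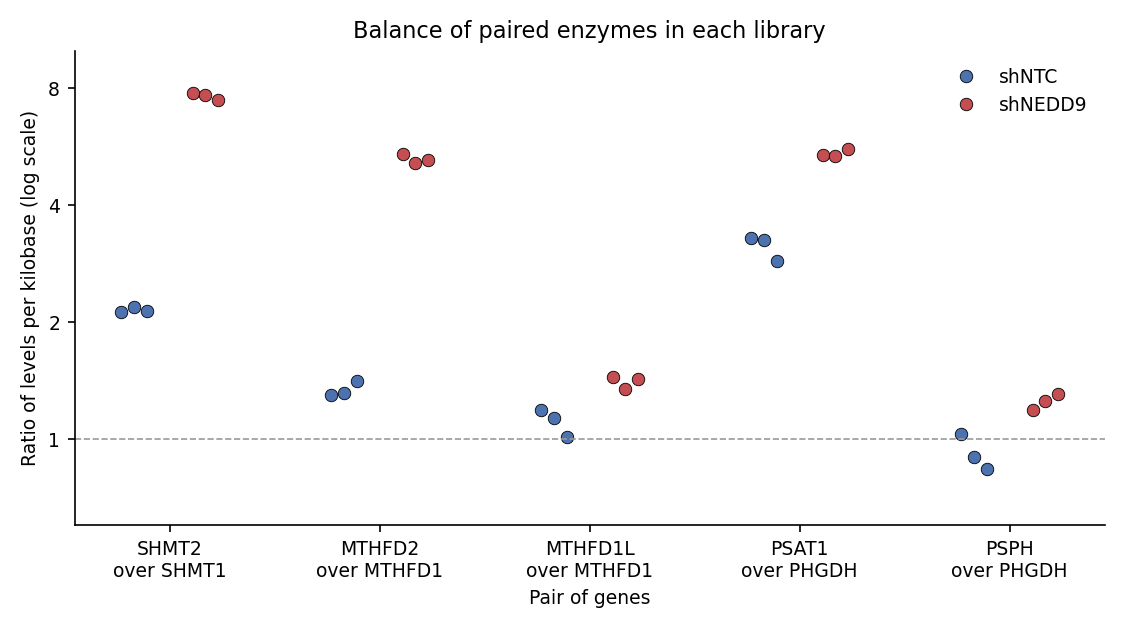
Ratio of levels per kilobase of annotated exon for 5 pairs of genes, on a log axis, with 1 point per library. The largest shift is that of MTHFD2 over MTHFD1 (means 1.34 and 5.26), close to that of SHMT2 over SHMT1 (means 2.15 and 7.64), and the smallest that of MTHFD1L over MTHFD1 (means 1.11 and 1.40).

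A pair of isozymes outside the members completes this picture. MTHFD2L (ENSG00000163738, chromosome 4, 74114174 to 74303099, plus strand) encodes a second mitochondrial dehydrogenase and cyclohydrolase beside MTHFD2. It had 39, 12 and 30 counts in the shNTC libraries and 0, 2 and 3 counts in the shNEDD9 libraries. The ratio of summed counts over library totals was 22.3 times lower in shNEDD9, with an exact 95% interval of 9.19 to 70.6 for counting error. MTHFD2L passed the filter on low counts only through the shNTC libraries, so that it had to differ, and its fitted log2 fold change of -4.38 (SE 0.44) is given without its p. At 4.56 ± 0.74 CPM it was rare in shNTC as well (n = 3). ALDH1L1, the cytosolic counterpart of ALDH1L2, had 6 counts in shNTC and 8 in shNEDD9 in sum and was not tested. Its ratio of summed counts was 0.97, with an interval of 0.29 to 3.38.

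The neighbours of MTHFD2L on chromosome 4 were lower too. Of 9 tested genes that start within 1000 kb of it, 7 were called lower and 1, the albumin gene ALB, higher, with a median log2 fold change of -2.33. Over all tested genes, 35.9% were called lower and 35.5% higher. Within 500 kb, 4 of 4 were lower. These are the chemokine genes CXCL8 (-2.93), CXCL1 (-3.56), CXCL5 (-2.79) and CXCL3 (-3.30). MTHFD2L thus went the same way as most of these neighbours, and what part the shared position had was not tested. Over the same 1000 kb, the medians of the neighbours of the 9 members lay between -0.07 for MTHFD1 and PHGDH and 0.42 for PSPH and MTHFD1L. The 9 members lie on 8 chromosomes, and SHMT2 and ALDH1L2 share chromosome 12.

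**Figure D4:**
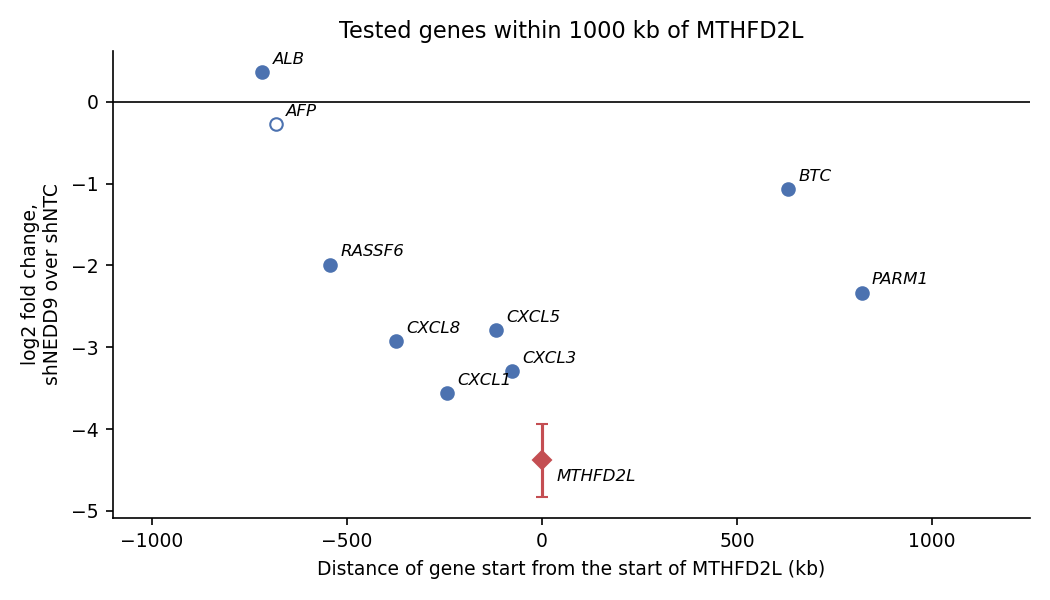
Log2 fold change (shNEDD9 over shNTC) of tested genes within 1000 kb of MTHFD2L, against the distance of their start from its start in kb. Filled points were called by edgeR, the diamond is MTHFD2L with its SE, and the 4 chemokine genes within 500 kb are its lowest neighbours.

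The remaining pathway was taken from 6 lists by role, with 47 genes in all, of which 34 passed the filter. Of these 16 were higher and 9 lower in shNEDD9 (47.1% and 26.5%, against 35.5% and 35.9% of all tested genes), with a median log2 fold change of 0.14. Only GGH and GLDC had a log2 fold change above that of PHGDH. Of the 13 genes not tested, 12 had fewer than 30 counts over all libraries.

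Folate uptake and retention went both ways, with 2 of 4 tested genes higher and 2 lower. GGH, which trims the glutamate tail of folates so that they can leave the cell, rose 3.75-fold, from 10.6, 10.96 and 9.20 CPM to 39.8, 37.5 and 37.3 CPM. SLC19A1, the reduced folate carrier, rose by 0.47 on the log2 scale (SE 0.04). SLC46A1, the proton-coupled folate carrier, fell by 0.81 (SE 0.08, edgeR adjusted p = 4.01e-25), and FPGS, which adds the glutamate tail and was named after its value was seen, was the other that fell. SLC25A32, the mitochondrial folate carrier gene, is listed at 0 in all 6 libraries, and whether its reads were lost in counting could not be settled from the table.

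In the cytosolic folate cycle 4 of 6 tested genes were higher and 1 lower. TYMS, which makes thymidylate, rose 2.69-fold (log2 fold change 1.43, SE 0.08). GART, a purine synthesis enzyme that uses formyl folate, rose by 0.83 on the log2 scale (SE 0.03). MTHFS, a formyl folate enzyme, gave no call (edgeR adjusted p = 0.495), with 5.92 ± 1.15 CPM in shNTC and 5.46 ± 0.82 CPM in shNEDD9 (n = 3 each).

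Of 6 tested genes of the mitochondrial list, which includes MTHFD2L, 3 were higher and 1 lower. SFXN3, a mitochondrial serine carrier gene, had a log2 fold change of 0.28 (edgeR adjusted p = 0.0139) and DMGDH, a dehydrogenase that feeds the folate cycle, 0.51 (edgeR adjusted p = 0.0308). Both calls were lost without shNTC replicate 1 (edgeR adjusted p = 0.0904 and 0.0976), without shNTC replicate 3 (0.0501 and 0.2) and with DESeq2 (adjusted p = 0.0978 and 0.151). That of DMGDH was lost also without shNEDD9 replicate 1 (edgeR adjusted p = 0.0588), without shNEDD9 replicate 2 (0.0994) and without a filter on low counts (0.0506). MTFMT, which formylates the initiator tRNA, stood at 23.7 ± 2.74 and 21.3 ± 1.34 CPM (n = 3 each, edgeR adjusted p = 0.085).

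Among genes of glycine cleavage and use, 2 of 5 tested genes were higher and 2 lower. GLDC, the decarboxylase of the glycine cleavage system, had 0.94, 3.45 and 2.18 CPM in shNTC and 8.37, 6.97 and 5.83 CPM in shNEDD9 (3.62-fold, log2 fold change 1.86, SE 0.26). It passed the filter only with the help of the shNEDD9 libraries, since 1 shNTC library lay under the minimum. DLD, a subunit it shares with other dehydrogenases, rose by 0.47 on the log2 scale (SE 0.04), and GCAT, which cleaves a threonine product to glycine, fell by 0.26 (SE 0.07). AMT and GCSH, the other subunits of glycine cleavage, were too rare to test, with 15 and 27 counts in sum. GNMT, which methylates glycine, had 1.30 ± 0.50 and 1.49 ± 0.17 CPM (n = 3 each, edgeR adjusted p = 0.486).

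Among other users of serine, 2 of 7 tested genes were higher and 3 lower. CBS, which joins serine to homocysteine, rose 2.46-fold (log2 fold change 1.30, SE 0.15), and PTDSS1, a phosphatidylserine synthase gene, rose by 0.79 on the log2 scale (SE 0.03). SPTLC1, a subunit of the enzyme that starts sphingolipid synthesis from serine, fell by 1.03 (SE 0.09). PTDSS2 was not called (edgeR adjusted p = 0.225). In the methionine and methyl cycle 3 of 6 tested genes were higher and 0 lower. AHCY, which hydrolyses S-adenosylhomocysteine, rose by 1.12 on the log2 scale (SE 0.03), from 252.3 ± 7.77 to 548.2 ± 11.1 CPM (n = 3 each), and MTRR, which reactivates methionine synthase, rose by 0.36 (SE 0.06). MAT2A, the methionine adenosyltransferase gene, had a log2 fold change of 0.08 (edgeR adjusted p = 0.0273), a call that was lost under 6 of 13 alternatives. These were DESeq2 (adjusted p = 0.129), the replicate block, and the fits without shNTC replicate 1 (edgeR adjusted p = 0.109), shNTC replicate 3 (0.11), shNEDD9 replicate 2 (0.051) and shNEDD9 replicate 3 (0.106). AHCYL1 had a log2 fold change of -0.00 (edgeR adjusted p = 0.947).

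**Figure D5:**
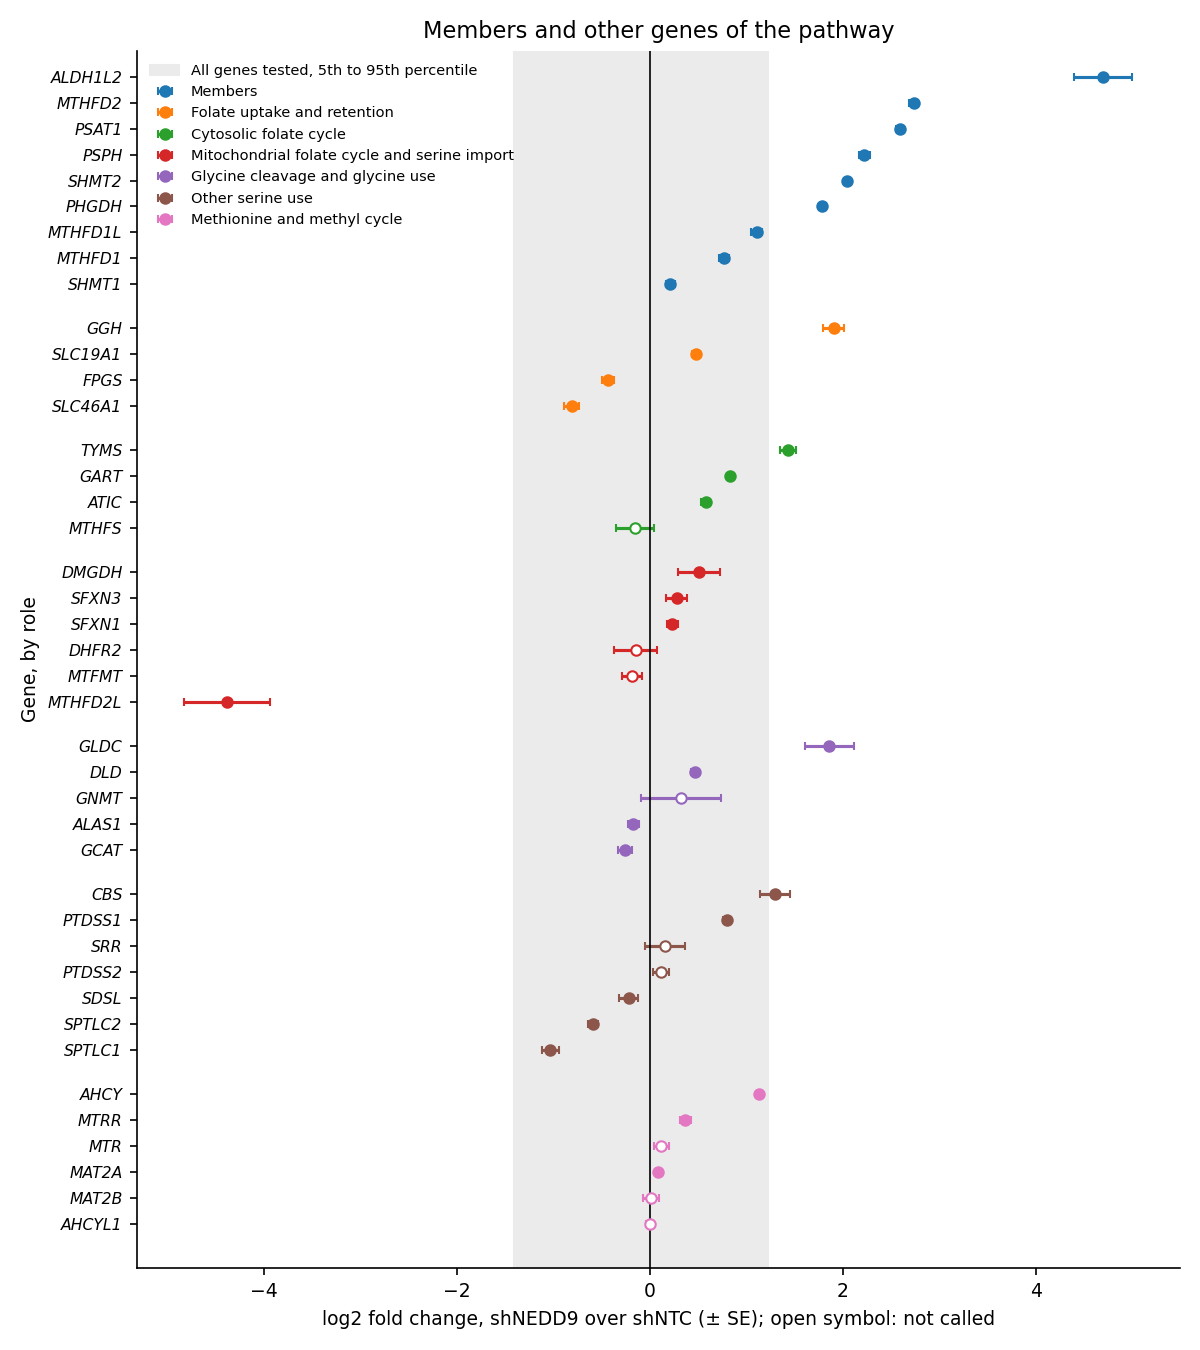
Log2 fold change (shNEDD9 over shNTC) with SE for the 9 members and 32 of the 34 tested genes of the 6 other lists, grouped by role. The grey band spans the 5th to the 95th percentile of all tested genes (-1.42 to 1.22); 6 members lie beyond it on the right, as do GGH, TYMS, GLDC and CBS, and MTHFD2L lies beyond it on the left.

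Regulators and growth markers moved beside the members. ATF4 had 199.6, 183.2 and 194.2 CPM in shNTC and 495.6, 488.7 and 500.9 CPM in shNEDD9 (2.55-fold), and DDIT3, another factor of the stress response, rose 2.58-fold. MYC, which also acts on these genes, rose 2.09-fold. NFE2L2, the antioxidant factor NRF2, fell by 0.44 (SE 0.05), and EHMT2, a histone methyltransferase, was not called (edgeR adjusted p = 0.222). All 8 genes of a proliferation list (MKI67, TOP2A, CCNB1, PCNA, MCM2, TYMS, E2F1 and CDK1) were higher, where 35.5% of all tested genes were. Their sum was 903.9 to 932.2 CPM in shNTC and 2521 to 2547 CPM in shNEDD9. TYMS is in the cytosolic folate list as well. The part of these genes in the members' increase was not tested.

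Genes with the most similar profile were sought among the 11432 genes whose mean reached 5 CPM. The measure was the root mean square difference of log2 CPM over the 6 libraries after centring each gene, which mainly reflects an equal fold. FANCI (0.02), a DNA repair gene, and CEBPG (0.03), a transcription factor gene, were nearest to PHGDH. SCD and PLOD2 (0.04 each) were nearest to PSAT1, and SLC7A11 (0.03), the cystine transporter gene, and BLM (0.06) to PSPH. UBP1 and FAF2 (0.02 each) were nearest to SHMT1, GMPS and MRPL15 (0.02 each) to MTHFD1, and ATAD2 (0.008) and JUN (0.03) to MTHFD1L. LDHA and PTGS1 (0.06 each) were nearest to SHMT2, PCK2 (0.10) and DDIT4 (0.12) to MTHFD2, and STC2 (0.37) and AJUBA (0.42) to ALDH1L2. Among the members themselves the closest profiles were those of PSPH and SHMT2 (0.12), PHGDH and SHMT2 (0.13) and PSAT1 and MTHFD2 (0.13), and the farthest those of SHMT1 and ALDH1L2 (1.95).

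Some of these counts could hold reads of other genes, or lack reads that were shared with them. For genes on the opposite strand this depends on the strand setting of the counting, which was not given in the sources used here. PSPHP1, an unprocessed pseudogene of PSPH on chromosome 7 (55764797 to 55773288), had 66 counts in shNTC and 164 in shNEDD9, against 654 and 4255 for PSPH, and it was 1.78-fold higher (log2 fold change 0.83, SE 0.21). The division of reads between the 2 is uncertain. The 7 annotated copies of MTHFD2 and the 4 of PSAT1 had at most 2 and 5 counts each over all libraries, that of SHMT1 had 2 and MTHFD1P1 had 18. On the opposite strand C12orf45 overlaps ALDH1L2, with 119 counts in shNTC and 283 in shNEDD9, far more than ALDH1L2 in shNTC. SMCR8 overlaps SHMT1 and was not called (57.8 ± 4.04 and 61.4 ± 1.08 CPM, n = 3 each, edgeR adjusted p = 0.302). ZBTB25 overlaps MTHFD1 and rose by 0.40 on the log2 scale (SE 0.11), NDUFA4L2 overlaps SHMT2 with 16 and 85 counts, and SLC4A5 overlaps MTHFD2 with 18 and 39 counts.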

How the data were processed

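The authors deposited 1 table of raw read counts per gene for 6 libraries, not normalised. Per the labels' protocols, total RNA from RNeasy columns went into strand-marking TruSeq libraries. The submitters' processing notes list STAR 2.5.3a, Subread 1.6.2 with featureCounts, cutadapt 1.9 and FastQC 0.11.5, and the builds hg19 and GRCh38, without roles. Strand setting and annotation: not given in the sources used here. All 58735 identifiers occur in GENCODE release 29 (GRCh38), which gave coordinates and exon lengths. 1 row without identifier was left out, and 27 symbols turned into dates were restored.

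Libraries were grouped by their titles. Counts were tested with edgeR 4.0.16 (quasi-likelihood, robust, TMM factors of 0.99 to 1.01, filterByExpr with minimum count 10, 13958 genes, Benjamini-Hochberg adjustment, threshold 0.05) in R 4.3.3. SE is the unmoderated log2 fold change divided by the square root of F. A count of 3, the floor of detection, is 0.30 to 0.93 CPM, and intervals and floors cover counting error only. Chi-square divided by its degrees of freedom was 1.14 to 1.20 between replicates, only a little above sampling noise. Each library counted as 1 in the test, but a spread this small does not show that the libraries were independent.

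The members and all lists were chosen with earlier results of these data known. Named genes are the members, NEDD9, regulators, 2 isozymes, up to 3 changed genes per list with the largest log2 fold changes (mean of at least 1 CPM) and its most abundant gene not called, and the 2 nearest profiles per member (prior count 2). Alternatives were library totals alone, RLE factors, no count filter, a mean of at least 1 CPM, DESeq2 1.42.0, limma-voom (limma 3.58.1), the replicate number as a block, and each library left out. The procedure was tested on simulated data. Some genes that the rule took are counted in their lists and are not otherwise reported.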

Additional observations from a re-analysis of the deposited data

How the results depend on the processing

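All 9 members were called higher, and 0 lower, under each of the 13 alternatives to the test. None of their 118 alternative values changed direction. Among these values is the ratio of summed counts of ALDH1L2, which has no call. Folds ranged from 3.36 to 3.55 for PHGDH, 5.90 to 6.11 for PSAT1, 6.42 to 7.05 for MTHFD2, 1.14 to 1.17 for SHMT1 and 19.6 to 41.4 for ALDH1L2, whose 8 counts in shNTC limit it. Over all genes 4244 to 5111 were higher and 4311 to 5061 lower, the fewest with DESeq2. Of the other pathway genes 13 to 16 were higher and 7 to 9 lower. Same-numbered libraries did not deviate together (correlations of -0.05, -0.02 and 0.01), and the replicate block gave 4875 higher and 4952 lower genes and 15 higher and 8 lower pathway genes, with MAT2A no longer called (adjusted p = 0.0603). Of 454 alternative values of other named genes 15 lost their call, all of DMGDH, SFXN3 and MAT2A. The sign reversed for AHCYL1 with library totals alone (0.015), with no filter (0.020) and with libraries left out (-0.025 to 0.018), and for PTDSS2 with libraries left out (-0.00084 to 0.20), and neither was called. The cause was not tested. Of the 18 nearest genes 17 were the same at a minimum of 20 CPM. Over the bases before the start alone, 32.0% of promoters held CCAAT and 3.14% TGATGNAA. The interval for ALDH1L2 and the neighbouring genes were added after the data were seen.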
